A study of Mus musculus with 6 samples.

Results

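Cytosolic ribosomal proteins, the proteins that fold with ribosomal RNA into the translating particle, were followed at the level of their mRNAs while mouse embryonic stem cells left the naive pluripotent state. The members were the protein-coding genes of the GRCm38 annotation named Rpl or Rps with a number that at most 1 letter (a, x, y or l) and its digits follow, Rplp0 to Rplp2, and Rpsa. This rule gave 83 of the 51826 genes in the count table, 51 of the large subunit and 32 of the small subunit. Another 6 rows whose symbols fitted the pattern are annotated as pseudogenes and were left out.

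Epiblast-like cells (EpiLC), 3 libraries, were set against embryonic stem cells (ESC), 3 libraries. Both states were wild type and came from the mouse embryonic stem cell line V6.5. The EpiLC had been without Lif and without 2i until day 3, while the ESC medium held Lif and the 2i inhibitors of GSK and MEK. All cells shared Knockout DMEM with 15% FBS, so no group was free of serum. The labels do not say whether the libraries of a state came from separate cultures, and the p-values below measure only the spread between libraries, which may be technical.

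A ribosome carries a single copy of nearly every ribosomal protein, and the surplus of any protein that finds no place in a particle is degraded. Ribosomal protein mRNAs share a run of pyrimidines at the 5′ end, the TOP motif, through which the growth-sensing kinase mTORC1 sets their translation, so that their mRNA level and their rate of translation need not move together. In mammals a few of these genes have paralogs, marked here by an l or l1 at the end of the symbol. Some of these paralogs are best known from particular tissues. Rpl3l is known from heart and skeletal muscle, and Rpl10l and Rpl39l from male germ cells of the mouse.

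Library totals ran from 9710410 to 22879812 counts, and a gene at 0 may hold up to 3 counts, which is 0.131 to 0.309 CPM (counts after scaling all libraries to one size). These limits cover counting error only. Of 10 markers of naive ESC, 10 were lower in EpiLC, Klf4 among them with 1.97 CPM in EpiLC and 190.9 CPM in ESC. Of 10 EpiLC markers 9 were higher, Fgf5 with 39.2 CPM in EpiLC and 0.098 CPM in ESC, while Utf1 was not called. ESC replicate 3 stood apart. Over genes, its chi-square divided by the degrees of freedom was 25.7 and 26.1 against the other ESC libraries, while the remaining pairs within a state lay between 2.17 and 4.11. Levels below are CPM on TMM-scaled totals, log2 fold changes are EpiLC minus ESC from edgeR's quasi-likelihood test, and a gene was called at a Benjamini-Hochberg adjusted p under 0.05 over 14996 genes.

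Most ribosomal protein mRNAs differed little between the states, while 3 paralogs ending in l were several-fold lower in EpiLC. Of the 82 members tested, 10 were called higher and 16 lower in EpiLC. That is 31.7% of the members, beside 64.6% of all genes tested (32.0% higher and 32.6% lower). The 3 members called with at least a 2-fold change were Rpl3l, Rpl10l and Rpl39l, all lower, whereas 29.4% of all genes tested passed that mark in either direction. The median log2 fold change of the members was -0.05 and that of all genes tested was 0.01. For 67 members (81.7%) the whole 95% interval of the fold change lay within 1.5-fold of no change, which held for 30.5% of all genes. Groups did not overlap for 30 members, 11 higher and 19 lower, a count to be read beside the 70.2% of all genes whose groups did not overlap. Rpl24 was the member left untested, with 0 to 4 counts in a library. It overlaps the gene model Gm28037 on the same strand, so its level is uncertain.

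**Figure D1:**
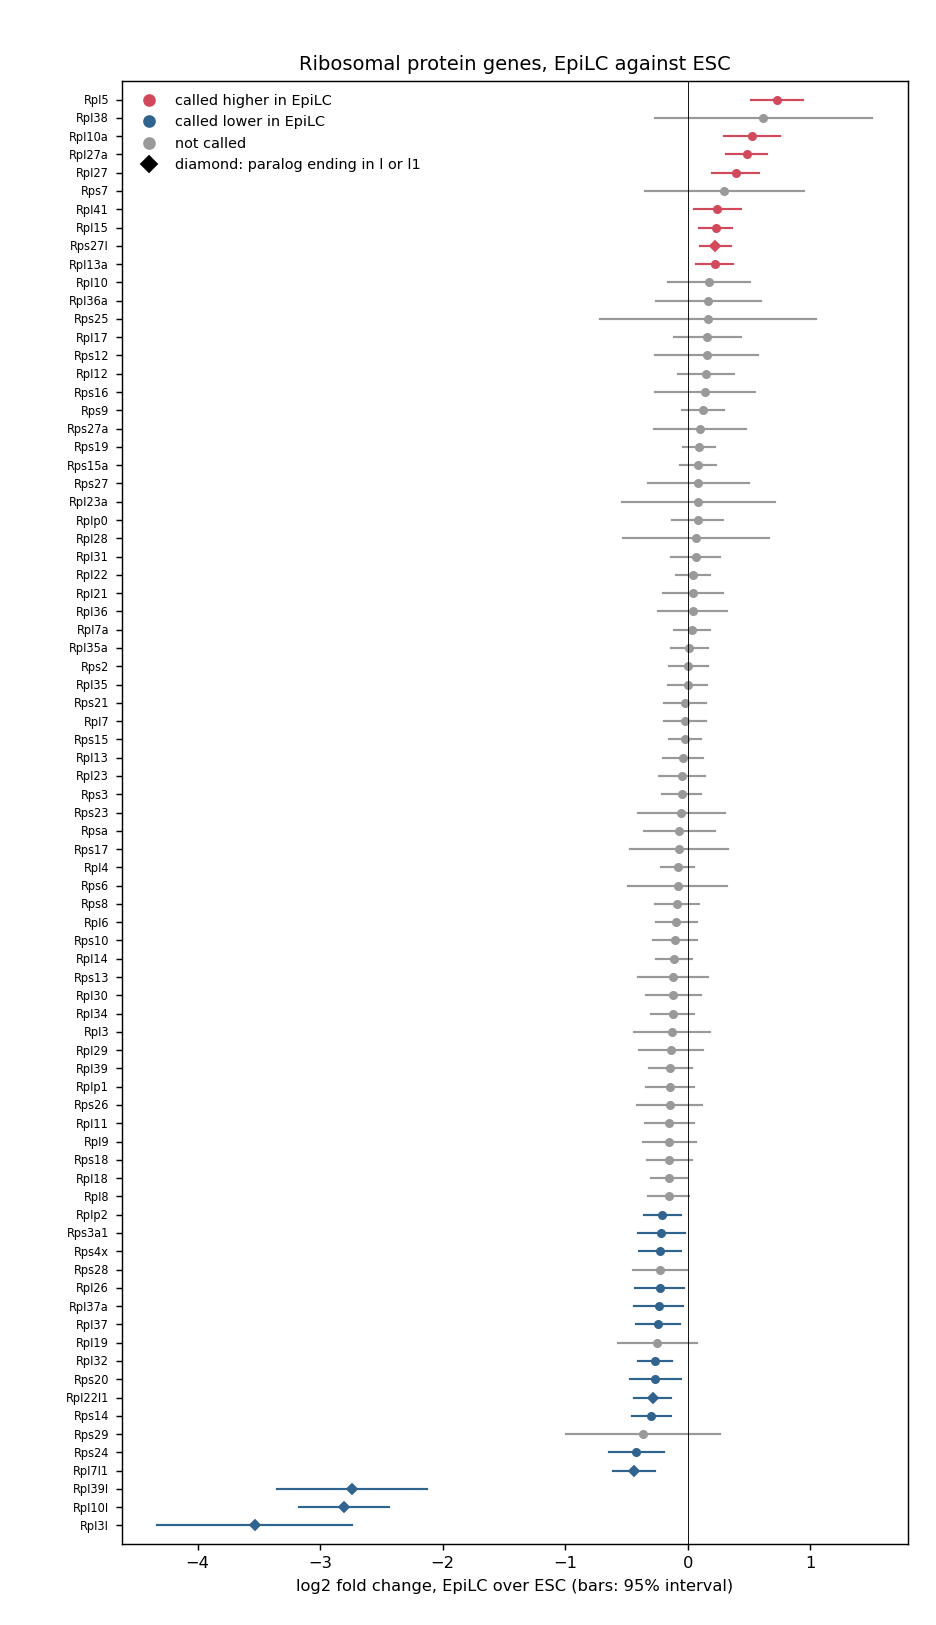
Log2 fold change, EpiLC over ESC, of 79 of the 82 tested ribosomal protein genes in order of size, with bars for the 95% interval and diamonds for paralogs ending in l or l1. Points crowd near 0 between -0.44 and 0.73, except Rpl39l, Rpl10l and Rpl3l at -2.74, -2.81 and -3.53.

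Of the 6 members that end in l or l1, 1 was called higher and 5 lower. The other 76 tested members spanned log2 fold changes of -0.42 to 0.73, with 9 called higher and 11 lower. The shares called were 100% and 26.3%, beside 64.6% of all genes tested. Rpl36al, the paralog of Rpl36a, falls outside the rule by its letters and was not called (log2 fold change -0.10, edgeR adjusted p = 0.40). Each paralog among the members was set beside its canonical partner. Rpl39l is the paralog whose protein takes the place of Rpl39, a very small protein that lines the exit tunnel for the nascent chain. The coding sequences of Rpl39l (chr16:10174310-10174465, 1 coding exon on the plus strand) and of Rpl39 (chrX:37082701-37085127, spliced, minus strand) are both 156 bases long and differ at 23 positions. They are shown because this pair is short enough to be read whole and holds a strong difference in level. Capitals mark the bases that differ, and the sequences come from the GENCODE M21 transcripts on GRCm38.
Rpl39l: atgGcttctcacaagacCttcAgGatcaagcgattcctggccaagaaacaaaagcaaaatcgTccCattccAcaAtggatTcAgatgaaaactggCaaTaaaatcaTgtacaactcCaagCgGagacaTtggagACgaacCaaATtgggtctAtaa
Rpl39: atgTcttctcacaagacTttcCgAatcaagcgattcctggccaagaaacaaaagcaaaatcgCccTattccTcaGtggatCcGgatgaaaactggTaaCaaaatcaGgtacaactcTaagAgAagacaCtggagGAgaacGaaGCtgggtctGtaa

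Rpl39l had 10.6, 7.00 and 9.62 CPM in the 3 EpiLC libraries, against 50.1, 47.4 and 84.9 CPM in the 3 ESC libraries. All ESC libraries lay above all EpiLC libraries, with ESC replicate 3 the highest. The log2 fold change was -2.74 ± 0.27 (SE, edgeR adjusted p = 4.3e-05), 6.67-fold lower in EpiLC. Its partner Rpl39 had 276.6, 300.4 and 301.5 CPM in EpiLC and 336.4, 341.1 and 290.9 CPM in ESC, groups that overlapped. Rpl39 was not called (log2 fold change -0.14, 95% interval -0.32 to 0.04, edgeR adjusted p = 0.144). ESC replicate 3 alone brought the overlap, and without it Rpl39 was called lower (log2 fold change -0.22, edgeR adjusted p = 5.8e-04). Of the counts per kilobase of the pair, Rpl39l made up 6.24%, 3.89% and 5.24% in EpiLC, against 20.4%, 19.3% and 33.5% in ESC. The size of this share rests on merged exons of all annotated transcripts, 831 bases for Rpl39l and 1434 for Rpl39, and is uncertain. The change of the ratio between states does not depend on these lengths.

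Rpl10l is an intronless copy on chromosome 12 (chr12:66283379-66284401, minus strand) of the X-linked Rpl10, whose protein helps to form the peptidyl transferase side of the large subunit and is among the last to join it. Rpl10l had 5.51, 7.17 and 6.59 CPM in EpiLC, against 40.9, 40.8 and 54.3 CPM in ESC. The groups stood far apart, and the log2 fold change was -2.81 ± 0.16 (SE, edgeR adjusted p = 2.6e-06). Rpl10 had 14.4, 10.4 and 11.0 CPM in EpiLC and 10.5, 10.4 and 10.9 CPM in ESC, with overlapping groups and no call. Per kilobase of exon, Rpl10l averaged 6.28 and Rpl10 5.81 CPM in EpiLC, while in ESC Rpl10l averaged 44.3 and Rpl10 5.15 CPM. Rpl10l held 43.5%, 58.1% and 54.8% of the pair in EpiLC and 88.7%, 88.7% and 90.9% in ESC. Of the 50-base windows of the Rpl10 transcripts 33.5% also occur in another gene, against 7.60% for Rpl10l, so the order of the pair within EpiLC is uncertain. Counted per kilobase of windows found in no other gene, an alternative chosen after seeing the data, the mean log2 ratio of Rpl10l to Rpl10 in EpiLC was -0.10, beside 0.12 per kilobase of exon.

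Rpl3l, the striated muscle paralog of Rpl3, a core protein near the peptidyl transferase centre, was at the edge of detection in EpiLC. It had 3, 2 and 3 counts in the EpiLC libraries and 46, 71 and 37 counts in the ESC libraries. On the scaled totals these were 0.300, 0.171 and 0.267 CPM in EpiLC and 2.38, 3.19 and 3.22 CPM in ESC. The EpiLC values were at or under the limit of 3 counts, all ESC values were above it, and the log2 fold change was -3.53 ± 0.35 (SE, edgeR adjusted p = 4.2e-05). Rpl3 had 62.2, 68.3 and 68.2 CPM in EpiLC and 81.6, 78.3 and 56.4 CPM in ESC, with ESC replicate 3 below all others and no call. Without that library Rpl3 was called lower (log2 fold change -0.28, edgeR adjusted p = 4.4e-04). Rpl3l made up 1.08%, 0.600% and 0.875% of the pair per kilobase in EpiLC and 5.39%, 7.35% and 10.04% in ESC.

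Rpl7l1, a relative of Rpl7 and of the yeast ribosome assembly factor Rlp7, was the next of the lower paralogs. It had 213.5, 233.6 and 233.0 CPM in EpiLC, against 312.4, 328.0 and 281.8 CPM in ESC, and the groups did not overlap (log2 fold change -0.44 ± 0.08 SE, edgeR adjusted p = 0.001). Rpl7, a large-subunit protein, averaged 535.3 ± 7.69 CPM in EpiLC and 543.6 ± 47.9 CPM in ESC (SD, n = 3 each) and was not called. Without ESC replicate 3 it was called lower (log2 fold change -0.11, edgeR adjusted p = 0.026). Rpl22l1, the paralog of the RNA-binding protein Rpl22, had 51.2, 50.9 and 52.8 CPM in EpiLC, against 64.1, 63.9 and 60.7 CPM in ESC, again without overlap (log2 fold change -0.29 ± 0.07 SE, edgeR adjusted p = 0.005). Rpl22 averaged 437.3 ± 19.9 CPM in EpiLC and 424.1 ± 12.7 CPM in ESC and was not called.

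Rps27l, known in human cells as a p53 target, was the exception, being higher in EpiLC. Its coding sequence (chr9:66946175-66949357, spliced, plus strand) and that of Rps27 (chr3:90212725-90213615, spliced, minus strand) are both 255 bases long and 76.1% identical. The pair is shown because its paralog ran against the others in direction. Capitals again mark bases that differ between the GENCODE M21 transcripts.
Rps27l: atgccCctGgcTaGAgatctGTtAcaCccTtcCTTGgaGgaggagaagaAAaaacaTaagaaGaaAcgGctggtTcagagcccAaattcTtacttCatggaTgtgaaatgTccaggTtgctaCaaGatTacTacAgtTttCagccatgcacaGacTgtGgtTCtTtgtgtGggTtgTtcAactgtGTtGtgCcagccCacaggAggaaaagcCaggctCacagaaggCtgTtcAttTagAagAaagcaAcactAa
Rps27: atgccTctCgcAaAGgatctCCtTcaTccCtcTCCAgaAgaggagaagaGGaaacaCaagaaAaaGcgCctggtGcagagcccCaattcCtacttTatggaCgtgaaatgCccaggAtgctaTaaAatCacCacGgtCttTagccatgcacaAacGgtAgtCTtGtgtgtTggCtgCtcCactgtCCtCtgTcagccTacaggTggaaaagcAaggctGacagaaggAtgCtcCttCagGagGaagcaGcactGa

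Rps27l had 169.5, 168.5 and 166.9 CPM in EpiLC, against 144.9, 141.1 and 145.5 CPM in ESC. The groups did not overlap, and the log2 fold change was 0.23 ± 0.05 (SE, edgeR adjusted p = 0.006). Rps27, a zinc-binding protein of the small subunit, averaged 5.85 ± 0.33 CPM in EpiLC and 5.45 ± 1.01 CPM in ESC (SD, n = 3 each) and was not called. Per kilobase of exon the paralog held 97.4%, 97.2% and 97.4% of this pair in EpiLC and 97.5%, 96.5% and 97.3% in ESC. Of the Rps27 windows 25.0% occur in another gene, against 11.2% for Rps27l. How reads with several matches were counted is not given, so the paralog's share of this pair is uncertain.

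The ratio of paralog to partner within a library does not depend on the scaling between libraries. The log2 ratio was lower in EpiLC than in ESC by a difference of -3.26 for Rpl3l over Rpl3, -2.97 for Rpl10l over Rpl10 and -2.57 for Rpl39l over Rpl39. It was -0.42 for Rpl7l1 over Rpl7 and -0.33 for Rpl22l1 over Rpl22. For Rps27l over Rps27 the difference was 0.11 and the groups overlapped. In an exact two-sided permutation test over libraries the 5 pairs with a lower ratio reached p = 0.1, the smallest that 3 against 3 allow, and 0.117 after adjustment over 7 pairs, while Rps27l over Rps27 gave p = 0.8. Rps4l, an annotated pseudogene left out by the rule, was set beside Rps4x in the remaining pair. Rps4l had 175.4, 194.4 and 189.9 CPM in EpiLC, against 383.8, 365.8 and 270.5 CPM in ESC, a log2 fold change of -0.87 (edgeR adjusted p = 4.3e-04), and its log2 ratio to Rps4x differed by -0.63 with the same permutation p of 0.1. In each of the 7 pairs the paralog's transcripts shared 0 of their 50-base windows with those of the partner.

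**Figure D2:**
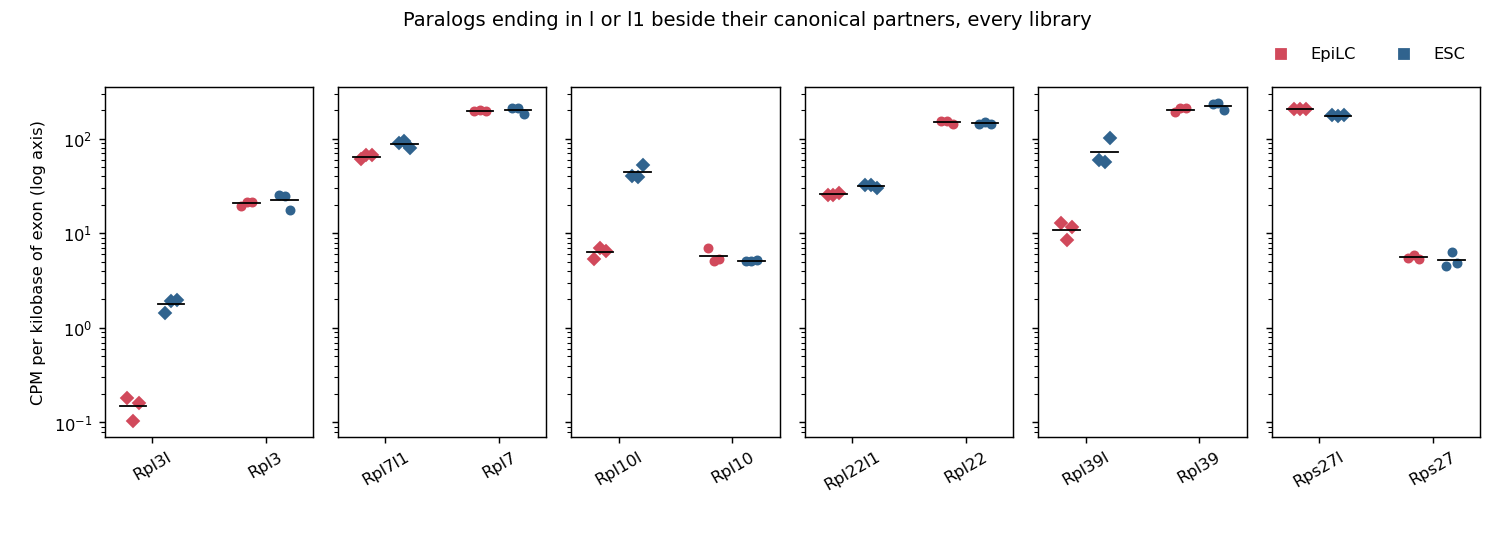
CPM per kilobase of exon, on a log axis, of each paralog (diamonds) and its partner (circles) in every EpiLC and ESC library, with bars at the group means. Rpl3l, Rpl10l and Rpl39l are lower in EpiLC, where the ranges of their partners overlap with those in ESC, and Rps27l lies far above Rps27 in both states.

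Markers of germ, muscle and fibroblast cells were read in the same libraries. Of 12 male germ cell markers, Prm1, Prm2, Tnp1 and Acrv1 were at 0 counts in every library. The summed level of the list was 94.2 to 95.1 CPM in EpiLC and 48.2 to 55.3 CPM in ESC. Ddx4, an RNA helicase of germ cells and the most abundant of the list in EpiLC, had 53.7 CPM in EpiLC and 12.9 CPM in ESC. Dazl, the most abundant in ESC, had 9.02 CPM in EpiLC and 23.4 CPM in ESC (log2 fold change -1.36, edgeR adjusted p = 1.5e-04). Ldhc, the lactate dehydrogenase of the male germ line, had 0.242 CPM in EpiLC and 1.31 CPM in ESC (-2.35, edgeR adjusted p = 0.002). Of the 5 markers of the list that were tested, 3 were called higher in EpiLC and 2 lower. The higher ones were Ddx4, which makes up much of the sum, Sycp1 and Sycp3. Sycp1 had a log2 fold change of 1.13 (edgeR adjusted p = 9.7e-04) and Sycp3 of 1.21 (edgeR adjusted p = 4.8e-04). The lower ones were Dazl and Ldhc. The 12 striated muscle markers summed to 15.6 to 17.2 CPM in EpiLC and 3.47 to 3.69 CPM in ESC. The most abundant was Myh6, with 8.58 CPM in EpiLC and 1.70 CPM in ESC, and Myh1 was at 0 in every library. The 10 fibroblast markers summed to 21.9 to 25.0 CPM in EpiLC and 10.2 to 13.8 CPM in ESC. Of the 6 that were tested, 4 were called higher in EpiLC and 1 lower, or 83.3%, beside 64.6% of all genes. Acta2, the most abundant in EpiLC, had 6.04 CPM there and 0.035 CPM in ESC, and Dcn had 4.32 and 0 CPM. Pdgfrb, the most abundant in ESC and the 1 called lower, had 1.81 CPM in EpiLC and 7.60 CPM in ESC. The part of any of these cells in the member levels was not tested, and in bulk RNA fewer cells of a type cannot be told apart from less RNA per cell.

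The promoters of Rpl39l, Rpl10l and their X-linked partners are shown from 100 bases before to 10 bases after the RefSeq start (GRCm38.p6), because both paralogs were called lower in EpiLC by several-fold. Capitals mark matches on either strand to any of 5 motifs. CTTTCC resembles the TOP motif, CCGGAAG the site of the factor GABP, and AAGATGGC that of the factor YY1. The box of the core promoter was searched as TATAAA and the E-box as CACGTG. The stretches are chr16:10170128-10170237 on the plus strand for Rpl39l, chrX:37085213-37085322 on the minus strand for Rpl39, chr12:66284392-66284501 on the minus strand for Rpl10l and chrX:74270716-74270825 on the plus strand for Rpl10.
Rpl39l: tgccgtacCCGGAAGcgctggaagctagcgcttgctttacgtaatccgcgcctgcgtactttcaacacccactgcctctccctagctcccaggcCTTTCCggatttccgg
Rpl39: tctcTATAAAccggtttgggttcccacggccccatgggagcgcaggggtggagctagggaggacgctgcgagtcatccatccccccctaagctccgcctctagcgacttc
Rpl10l: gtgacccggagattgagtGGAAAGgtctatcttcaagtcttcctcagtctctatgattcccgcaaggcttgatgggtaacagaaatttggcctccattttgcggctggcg
Rpl10: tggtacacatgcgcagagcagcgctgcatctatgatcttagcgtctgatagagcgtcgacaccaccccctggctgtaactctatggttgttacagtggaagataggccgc

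The Rpl39l stretch held CCGGAAG and CTTTCC, that of Rpl39 held TATAAA, that of Rpl10l held CTTTCC on the opposite strand, and that of Rpl10 held none of the 5 motifs. RefSeq promoter entries of 300 bases were matched for 63 of the 83 members. CTTTCC lay on either strand in 49.3% of the 67 entries of the members other than paralogs, against 26.3% of the entries of tested genes. On the sense strand within 15 bases of the start it lay in 13.4% of those entries, against 1.32% for tested genes. CCGGAAG was found in 37.3% against 16.6%, AAGATGGC in 10.4% against 4.16%, TATAAA in 8.96% against 6.98% and CACGTG in 11.9% against 9.94%. CCGGAAG and AAGATGGC can overlap by the letters AAG, and a match is a description of sequence.

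Among the other members, Rpl5 had the largest increase. Rpl5 joins Rpl11 and the 5S ribosomal RNA in a particle that also restrains the p53 inhibitor MDM2. Rpl5 had 32.6, 35.9 and 36.7 CPM in EpiLC, against 19.7, 22.3 and 21.6 CPM in ESC, without overlap (log2 fold change 0.73 ± 0.09 SE, edgeR adjusted p = 2.0e-04). Its partner in the particle, Rpl11, had 18.9, 18.6 and 18.6 CPM in EpiLC and 20.97, 21.1 and 20.1 CPM in ESC. The Rpl11 groups did not overlap either but ran the opposite way, and the gene was not called (log2 fold change -0.15, edgeR adjusted p = 0.16). Rpl5 overlaps Fam69a on the opposite strand, and 48.9% of its windows occur in another gene, so its level is uncertain.

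Other large-subunit genes higher in EpiLC included Rpl10a, Rpl27a, Rpl27 and Rpl41. Rpl10a, a protein of the L1 stalk that guides the exit of spent tRNA, had 20.7, 22.3 and 20.1 CPM in EpiLC, against 14.7, 15.4 and 13.6 CPM in ESC (log2 fold change 0.52 ± 0.10 SE, edgeR adjusted p = 0.002). Rpl27a had 57.8, 59.7 and 61.3 CPM in EpiLC, against 42.6, 45.0 and 40.4 CPM in ESC (0.48 ± 0.07 SE, edgeR adjusted p = 5.3e-04), and overlaps the gene model Gm47284 on the same strand. Rpl27, mutated in some patients with Diamond-Blackfan anaemia, had 31.0, 31.2 and 29.9 CPM in EpiLC, against 24.4, 23.8 and 21.9 CPM in ESC (0.39 ± 0.08 SE, edgeR adjusted p = 0.004). In these 3 genes no EpiLC library fell below an ESC library. Rpl41, which encodes an exceptionally short peptide between the subunits, had 187.3, 175.1 and 159.3 CPM in EpiLC and 138.2, 144.4 and 159.2 CPM in ESC. The Rpl41 groups nearly touched, and its log2 fold change was 0.24 (edgeR adjusted p = 0.032).

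Among the members called, those with the most negative changes outside the paralogs were Rps24, Rps14, Rps20, Rpl32, Rpl37 and Rpl37a. Rps24, a Diamond-Blackfan gene needed to process the 5′ end of the small-subunit rRNA, had 273.2, 284.3 and 287.5 CPM in EpiLC, against 400.0, 410.5 and 319.0 CPM in ESC (log2 fold change -0.42 ± 0.10 SE, edgeR adjusted p = 0.005). Rps14, whose human counterpart lies in a region lost in a form of myelodysplasia, had 472.3, 464.3 and 474.5 CPM in EpiLC, against 591.4, 613.7 and 529.4 CPM in ESC (-0.30 ± 0.07 SE, edgeR adjusted p = 0.005). In both genes the groups did not overlap, and ESC replicate 3 was the ESC library nearest to the EpiLC libraries. Rps20, a head protein that is ubiquitinated when ribosomes collide, had 327.9, 331.1 and 313.9 CPM in EpiLC, against 413.7, 420.4 and 335.9 CPM in ESC (-0.27, edgeR adjusted p = 0.03). Rpl32 averaged 429.2 ± 7.85 CPM in EpiLC and 515.5 ± 26.0 CPM in ESC (-0.26, edgeR adjusted p = 0.005), and overlaps Cand2 on the opposite strand. Rpl37 and Rpl37a, both zinc-binding proteins, had log2 fold changes of -0.24 each (edgeR adjusted p = 0.024 for Rpl37 and 0.041 for Rpl37a).

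By role, the shares called are read beside 31.7% of all members and 64.6% of all genes tested. Of the 3 P-stalk proteins, which recruit the translation factors, Rplp2 was lower (33.3%, log2 fold change -0.21), while Rplp0 at 0.08 and Rplp1 at -0.14 were not called. Of 8 proteins that line the nascent chain tunnel or lie at its exit, Rpl26 was lower (-0.23). Rpl4, Rpl17, Rpl19, Rpl23a, Rpl31, Rpl35 and Rpl39 were not called, with values from -0.25 for Rpl19 to 0.16 for Rpl17. Of 7 small-subunit proteins along the mRNA path, Rps3a1 was lower (-0.22, edgeR adjusted p = 0.049), although its groups overlapped. The other members of that group, Rps2, Rps3, Rps15, Rps23, Rps26 and Rps28, were not called and lay between -0.23 for Rps28 and 0.01 for Rps2. The ubiquitin fusion Rps27a at 0.10 and the collision-ubiquitinated Rps10 at -0.10 were not called. Of 18 genes whose human counterparts are mutated in Diamond-Blackfan anaemia, 3 were higher (Rpl5, Rpl15 and Rpl27) and 2 lower (Rps24 and Rpl26), and 13 were not called, so that 27.8% were called. By subunit, 8 of 45 tested large-subunit members other than paralogs were higher and 5 lower, and of 31 small-subunit members 1 was higher and 6 lower.

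ESC replicate 3 bore on these counts. Set against ESC replicates 1 and 2, this library had tested members at a median log2 difference of -0.14, and 56 of 82 had their lowest ESC value in it. Without ESC replicate 3, 50 members were called, 14 higher and 36 lower, beside 76.7% of all genes called (38.0% higher and 38.7% lower). All 26 calls made with the library were among these 50. Leaving out any other library gave 6 to 8 members higher and 8 lower. The share of all genes called was not taken for those fits, so their smaller counts cannot be read as particular to the members. The calls of Rpl3l, Rpl10l, Rpl39l, Rpl7l1, Rpl22l1, Rpl5, Rpl10a, Rpl27, Rpl27a, Rpl32, Rps14 and Rps24 held in all 14 settings run, that is 12 of 26. The call of Rps27l held in 13 settings and that of Rpl15 in 12. That of Rpl13a held in 10, those of Rpl41, Rplp2 and Rpl37 in 8, of Rps20 in 7, of Rpl26, Rpl37a and Rps4x in 6, and of Rps3a1 in 4. Over all members, the share of library counts was 1.97 ± 0.034% in EpiLC and 2.00 ± 0.079% in ESC (SD, n = 3 each).

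A few members varied more within a state than between states, and they are named here after their values were seen. Rps25, a small-subunit protein used by some viral internal ribosome entry sites, had 85.2, 64.3 and 39.6 CPM in EpiLC and 37.1, 40.6 and 92.7 CPM in ESC. Rps7 had 39.9, 31.2 and 21.1 CPM in EpiLC and 19.6, 20.6 and 35.7 CPM in ESC. Rpl38, which in mouse embryos affects the translation of Hox mRNAs, had 8.41, 7.17 and 4.72 CPM in EpiLC and 2.80, 3.51 and 7.82 CPM in ESC. In each of these genes EpiLC replicates 1 and 2 and ESC replicate 3 were high, the groups overlapped, and no call was made. Of 76 members with at least 5 CPM, 4 varied over 1.8-fold within a state (the above and Rpl28), or 5.26%, beside 7.80% of all such genes. The share of counts in snoRNA and scaRNA genes, small nucleolar and Cajal body RNAs that guide rRNA modification, was 0.941%, 0.773% and 0.583% in EpiLC and 0.632%, 0.580% and 0.933% in ESC. It was highest in EpiLC replicate 1 and ESC replicate 3, the libraries where Rps25 was highest in each state, and its part in these levels was not tested. No snoRNA lies within the annotated Rps25, Rps7 or Rpl38.

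**Figure D3:**
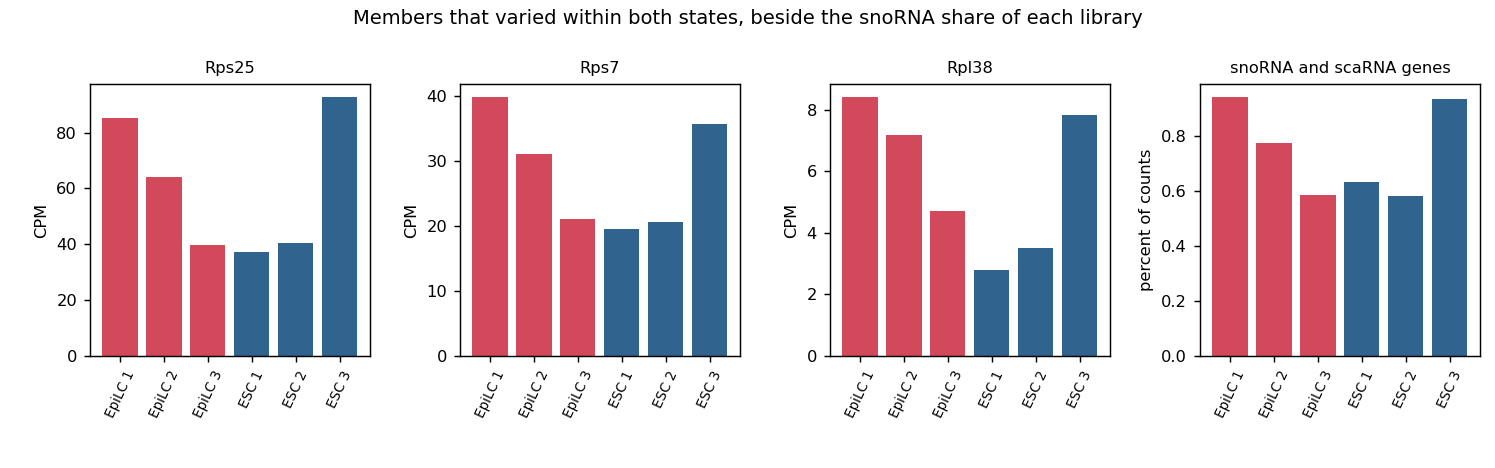
CPM of Rps25, Rps7 and Rpl38 and the percent of counts in snoRNA and scaRNA genes, 1 bar for each library from 0. All 4 panels are high in EpiLC replicates 1 and 2 and in ESC replicate 3 and low in ESC replicates 1 and 2.

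Levels spread widely although a ribosome needs these proteins in near equal number. Per kilobase of exon and averaged over the 6 libraries, they ran from 0.186 CPM for Rpl24 to 2170 CPM for Rplp1, with a median of 42.5 CPM. Rplp1, Rpl8 at 1475 and Rpl4 at 1023 CPM were the highest, and Rpl24, Rpl36a at 1.57 and Rps29 at 1.91 CPM the lowest outside the paralogs. These levels are uncertain, since ribosomal protein genes have many processed pseudogenes and how reads with several matches were counted is not given in the sources used here. Rpl24 also overlaps the gene model Gm28037 on the same strand. Exon lengths join all annotated transcripts of a gene, which bears on each level per kilobase. The median member shared 23.5% of its 50-base transcript windows with another gene, and 7 members shared over 50%. These were Rpl19, Rpl23a, Rpl24, Rpl35, Rpl36, Rplp1 and Rps3a1. Rpl3l and Rpl39l stood at 0%. Across the 83 members, the level per kilobase and the shared percentage had a Spearman rho of -0.29, as a description of genes that share libraries and are not independent replicates.

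**Figure D4:**
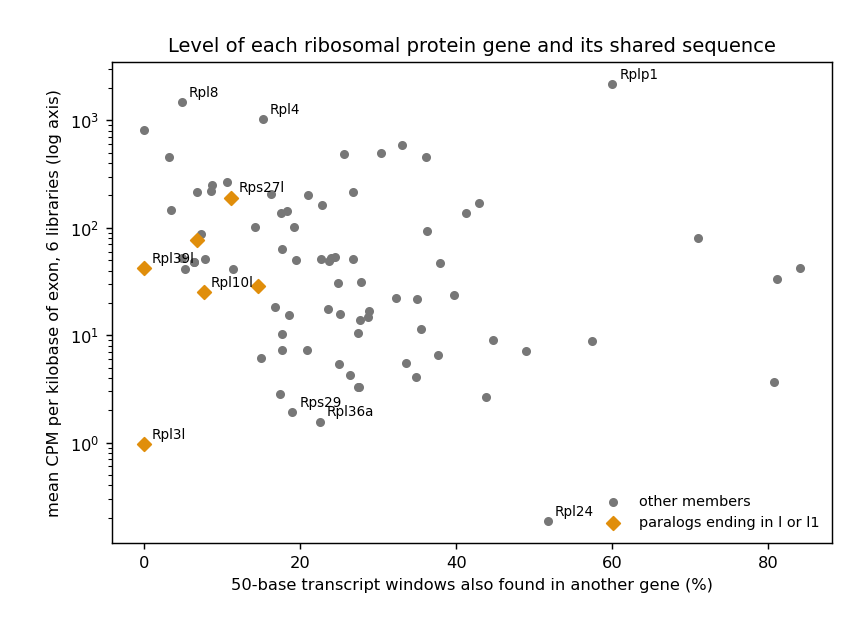
Mean CPM per kilobase of exon over the 6 libraries, on a log axis, against the percent of 50-base windows of each member also found in another gene. Rplp1 has the highest level at 60.0% shared windows and Rpl24 the lowest at 51.8%.

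Of the other ribosome components, Rack1, a scaffold protein on the small subunit, was lower, with 2481, 2546 and 2538 CPM in EpiLC, against 3080, 3096 and 2664 CPM in ESC (log2 fold change -0.22, edgeR adjusted p = 0.032). Fau, which encodes the small-subunit protein Rps30, averaged 5.13 CPM in EpiLC and 4.70 CPM in ESC and was not called. Rpl36al, the paralog of Rpl36a, with 17.9 CPM in EpiLC and 19.2 CPM in ESC, was not called either. Rps27rt was too low to test. Among 288 rows of pseudogenes named after ribosomal proteins, 22 were tested, of which 2 were higher and 0 lower by edgeR. That is 9.09% called, beside 64.6% of all genes tested.

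The genes that make or control ribosomes were counted in the same fit and read against the same 64.6% of genes called. Of 78 ribosome biogenesis factors 8 were higher and 22 lower, with a median log2 fold change of -0.04. They were led by Gar1 at 0.88, which belongs with the pseudouridine synthase Dkc1 at -0.70 to the same snoRNA-protein complex, and by Rrp9 at -0.67. Of 14 RNA polymerase I genes 1 was higher and 7 lower, including the subunit Znrd1 at -0.95, the rDNA-binding factor Ubtf at -0.80 and Cd3eap at -0.51. Of 18 other mRNAs with a TOP motif 2 were higher (Tpt1 at 0.62 and Nap1l1 at 0.54) and 5 lower (Eif3k at -0.55 among them). Of 17 regulators of TOP mRNAs and S6 kinases 6 were higher and 7 lower. Larp1, the protein that binds the TOP motif, had 268.5, 266.7 and 282.2 CPM in EpiLC, against 131.0, 125.3 and 141.4 CPM in ESC, without overlap (log2 fold change 1.04, edgeR adjusted p = 4.3e-06). The kinases Rps6ka6 at 1.58 and Rps6ka1 at -0.90 went in opposite directions.

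Of 13 tested p53 targets 6 were higher and 3 lower, or 69.2% called, beside 64.6% of all genes tested. Pmaip1 at 2.16 and Perp at 1.86 were higher, and Cdkn1a, the cell cycle inhibitor, was lower at -1.02. The 76 tested mitochondrial ribosomal proteins, which belong to a separate ribosome inside mitochondria, had 1 member higher and 45 lower, with a median log2 fold change of -0.36 beside -0.05 for the cytosolic members. Mrpl35 had 40.3, 42.4 and 41.0 CPM in EpiLC, against 87.8, 86.2 and 80.8 CPM in ESC (log2 fold change -1.04, edgeR adjusted p = 4.9e-06), and Mrpl14 and Mrps12 followed at -0.95 and -0.89. The share of members called was 60.5% for the mitochondrial list and 31.7% for the cytosolic one, beside 64.6% of all genes tested. By direction, 32.0% of all genes tested were called higher and 32.6% lower. These counts describe the lists, and no test of their difference was made.

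**Figure D5:**
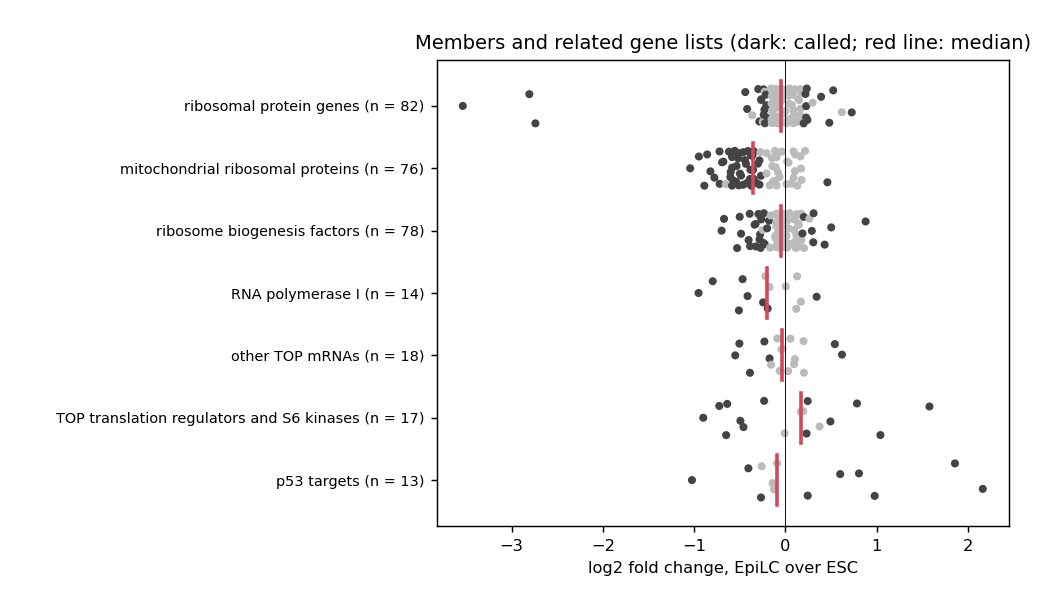
Log2 fold change, EpiLC over ESC, of each tested gene in 7 lists, dark where called, with a red line at the median. The cytosolic ribosomal proteins gather around -0.05 with 3 paralogs far to the left, while the mitochondrial ribosomal proteins centre on -0.36.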

How the data were processed

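The deposited table holds unnormalized counts, made by the authors, for each Ensembl gene in each of the 6 libraries. Per the labels' protocols, Trizol RNA was depleted of ribosomal RNA with Ribo-Zero Gold, and about 100 ng went into a Kapa stranded kit. The build mm10 and the tools cutadapt, STAR, featureCounts and DESeq2 are named in the submitters' processing notes. Tool versions, annotation release, strand setting and the treatment of reads with several matches were not given in the sources used here. Counts of antisense partners and near-identical copies are therefore uncertain.

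The 92 spike-in rows held 0 counts and were left out. Of 51826 gene rows, 51633 were matched by Ensembl identifier to GENCODE release M21 on GRCm38. Counts were tested with edgeR 4.0.16 (TMM scaling, quasi-likelihood test, filterByExpr at 10 counts per library and 15 in total, the state as single term, all 6 libraries) in R 4.3.3. Benjamini-Hochberg adjustment ran over the whole set of 14996 genes. The fit was first tested on simulated counts. DESeq2 1.42.0, other scalings, no filter, a replicate block, counts summed with named pseudogenes, TMM factors without the members and the omission of each library were run as alternatives.

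Paralog to partner ratios were taken within a library on counts per kilobase of merged exons with 0.5 counts added. They were compared by an exact two-sided permutation test. Merged exons join the exons of all annotated transcripts of a gene. Shared windows are the 50-base stretches of a member's transcripts that also occur, on either strand, in transcripts of another gene. Named are each paralog with its partner, the 6 largest and 6 most negative called changes of the other members, the 3 highest and 3 lowest levels per kilobase, the role groups, and up to 3 called genes of each related list with the largest absolute change. Some genes that this rule takes are not reported here. The members, lists and tests were chosen with earlier results of these data known.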

Additional observations from a re-analysis of the deposited data

How the results depend on the processing

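Each scaling, filter and tool kept the direction of all 26 member calls, and the number of calls is what moved. Members called lower numbered 16 with TMM scaling, 10 when scaled by the upper quartile and 8 on unscaled library totals. Of all genes tested, 32.6% were called lower with TMM scaling, 30.3% with the upper quartile and 29.4% on library totals. Members called higher numbered 10 with the filter on low counts and 4 with no filter on low counts. The share of all genes called was not taken for the fit with no filter. Leaving out 1 library gave 6 to 14 members higher and 8 to 36 lower. The 36 lower came without ESC replicate 3, where 38.7% of all genes tested were called lower. The median log2 fold change of the members was -0.05, and 0.017 with library totals, where the median of all genes shifted to 0.08, and -0.12 with no filter. The difference for Rpl3l over Rpl3 was -2.73 with 2 counts added to both genes in place of 0.5, which shows how the few EpiLC counts limit it. The other pair differences moved by less than the spread between libraries under the alternatives run, Rps27l over Rps27 included, which crossed 0 to -0.05 without ESC replicate 2. DESeq2 called 10 members higher and 15 lower. Deviations of the libraries from their state mean correlated at -0.115, 0.008 and -0.184 between same-numbered libraries. Between differently numbered libraries the correlations ran from -0.185 to 0.19. Deviations within a state sum to 0 for each gene and so are not independent. These values therefore cannot show whether the replicate numbers pair the libraries. With the replicate block 8 members were higher, 11 lower and 9234 genes called in all, against 9685 without it. The cause of these shifts was not tested.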
